A study of Mus musculus with 40 samples.

Results

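The 7 genes described here are *Cd33*, *Cd22*, *Siglec1*, *Siglece*, *Siglecf*, *Siglecg* and *Siglech*, the sialic acid-binding lectins of white blood cells and microglia that the count table lists by these names. They were taken by gene name from a table of 43346 genes, each name matched 1 row, and all 7 were among the 21253 genes with enough counts to be tested. RNA had been sequenced from the cortex of 40 mice in 4 groups of 10, each with 5 females and 5 males. Amyloid WT and amyloid Hom mice carried the 5xFAD transgenes, which the neuronal Thy1 promoter drives, and were 8.5 months old. Non-amyloid WT and non-amyloid Hom mice lacked the transgenes and were 6 months old. Hom mice carried the *Trem2* H157Y change on both alleles of the endogenous gene in every cell, a knock-in made by genome editing and bred from 1 founder, and WT mice carried it on neither. The cohorts came from separate crosses. Transgenes, age and breeding changed together between them and cannot be told apart.

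Siglecs are cell surface receptors that read sialic acid, the sugar that caps most glycans of vertebrate cells, and many of them restrain the cell that carries them. CD22, Siglec-E, Siglec-F and Siglec-G have cytoplasmic ITIM motifs that recruit the phosphatases encoded by *Ptpn6* and *Ptpn11*. Siglec-H has no such motif and signals through the adaptor encoded by *Tyrobp*, which TREM2 also uses, while Siglec-1 (sialoadhesin) is a large adhesion receptor of macrophages that interferon is known to induce. In the brain, *Siglech* is a known microglial gene, and human *CD33* lies at a locus of risk for Alzheimer's disease. Outside the brain CD22 and Siglec-G are best known from B cells, Siglec-F from eosinophils, and Siglec-H from plasmacytoid dendritic cells.

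Total counts per library ran from 41646271 to 105903846, and levels are given in CPM, the count relative to the library's total after TMM scaling. Replicate 19, an amyloid Hom female, had the fewest counts and stood apart by strand. In it 0.616% of counts fell on 488 genes that lie under a higher gene of the opposite strand, against 0.0144% to 0.0191% in the other 39 libraries, and results that lean on it are given both ways. *Trem2*, the edited gene, ranged from 30.3 to 111 CPM in amyloid WT mice, from 17.3 to 49.1 in amyloid Hom mice and from 7.52 to 15.2 in the 20 non-amyloid mice. A gene count does not separate the edited from the WT allele. In whole cortex, fewer cells of a type and less RNA per cell cannot be told apart.

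On mm10, *Siglecf* (43351341 to 43359531), *Siglecg* (43408204 to 43418358), *Cd33* (43527456 to 43533171) and *Siglece* (43651070 to 43660161) lie near each other on chromosome 7. *Cd22* (30865402 to 30880342) and *Siglech* (55768178 to 55778925) lie elsewhere on chromosome 7, and *Siglec1* (131069220 to 131086765) is on chromosome 2. RefSeq promoter windows of 300 bases (250 before the start of transcription and 50 after it, GRCm38.p6) were found for 6 of the 7 genes, and not for *Siglec1*. Those of *Siglecf* and *Cd33* are shown because they were the only pair of member windows with a run of at least 12 identical bases in the same direction, and because both genes were among those higher in the amyloid cohort. The capitals mark the 3 shared runs, which together cover 40 of the 300 bases. *Siglecf* is read on the plus strand (chr7:43351091-43351390) and *Cd33* on the minus strand (chr7:43533122-43533421), both 5′ to 3′.
Siglecf: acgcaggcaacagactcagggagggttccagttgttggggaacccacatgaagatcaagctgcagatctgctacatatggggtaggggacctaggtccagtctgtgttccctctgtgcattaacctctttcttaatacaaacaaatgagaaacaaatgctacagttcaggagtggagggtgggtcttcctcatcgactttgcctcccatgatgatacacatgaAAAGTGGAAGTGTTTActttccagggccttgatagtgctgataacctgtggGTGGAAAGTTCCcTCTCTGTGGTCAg
Cd33: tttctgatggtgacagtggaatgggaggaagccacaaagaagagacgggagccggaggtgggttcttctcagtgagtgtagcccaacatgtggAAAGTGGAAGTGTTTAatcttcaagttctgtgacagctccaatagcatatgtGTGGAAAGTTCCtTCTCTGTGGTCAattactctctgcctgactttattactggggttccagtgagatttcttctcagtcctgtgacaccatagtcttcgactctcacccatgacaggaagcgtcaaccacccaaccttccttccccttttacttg

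The longest shared run, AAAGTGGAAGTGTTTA, was 16 bases long and began at base 224 of the *Siglecf* window and base 94 of the *Cd33* window. It was in 2 of the 32851 RefSeq promoter windows, these 2 alone (0.00609%, both strands searched), as was the run that follows it. The last run, TCTCTGTGGTCA, was in 9 windows (0.0274%). The search for shared runs was chosen after the sequences had been seen. A motif read by PU.1, GAGGAAGT, and an interferon response motif, GAAA followed by any 2 bases and GAAA, were in none of the 7 member windows (2 of them for *Siglecg*), against 3.20% and 3.44% of all windows on either strand, which says only that these letters are not there. No 100-base window of the *Cd33*, *Siglecf*, *Siglece* or *Siglech* transcripts was found in another gene, and none of the 7 shared one with another member. For *Cd22* 4.84% of such windows were shared with *Gm29439*, an RNA of the opposite strand that overlaps 479 bases of its exons. *Gm29439* had 20 counts in replicate 19, beside 70 counts of *Cd22*, and at most 2 in any other library. The share was 1.88% for *Siglecg* and 0.0852% for *Siglec1*.

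Levels of different genes were compared per kilobase of the length that the table gives each gene. For *Cd33* that length is 2571 bases, while the GENCODE vM21 model has 7771 exon bases. The longer length would lower every level of *Cd33* per kb in proportion, and its range in amyloid WT mice would then overlap that of *Siglecf*. *Siglech* was the highest member in every group, with 7.14 ± 0.933 CPM per kb in non-amyloid WT mice and 12.9 ± 2.19 in amyloid WT mice (SD, n = 10). *Cd33* came next, with 2.36 ± 0.241 and 4.93 ± 0.946 CPM per kb. In all 4 groups every mouse had *Siglech* above *Cd33* and *Cd33* above each lower member, and these ranges did not overlap with the table's lengths.

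The order below them differed between the cohorts. In non-amyloid WT mice it ran *Siglece* (0.322 ± 0.0663 CPM per kb), *Siglecf* (0.152 ± 0.0300), *Cd22* (0.0419 ± 0.0184), *Siglec1* (0.0370 ± 0.0143) and *Siglecg* (0.0134 ± 0.0130). *Cd22* and *Siglec1* did not differ beyond their spread there, with *Cd22* the higher in 6 of 10 mice. In amyloid WT mice *Siglecf* (1.24 ± 0.537 CPM per kb) came right after *Cd33*, and *Cd22* (0.485 ± 0.240) came next, ahead of *Siglece* (0.364 ± 0.0823). *Cd22* lay above *Siglece* in 6 of 10 amyloid WT mice and below it in 6 of 10 amyloid Hom mice, so that these neighbours did not separate. *Siglecg* was lowest in every group.

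**Figure D1:**
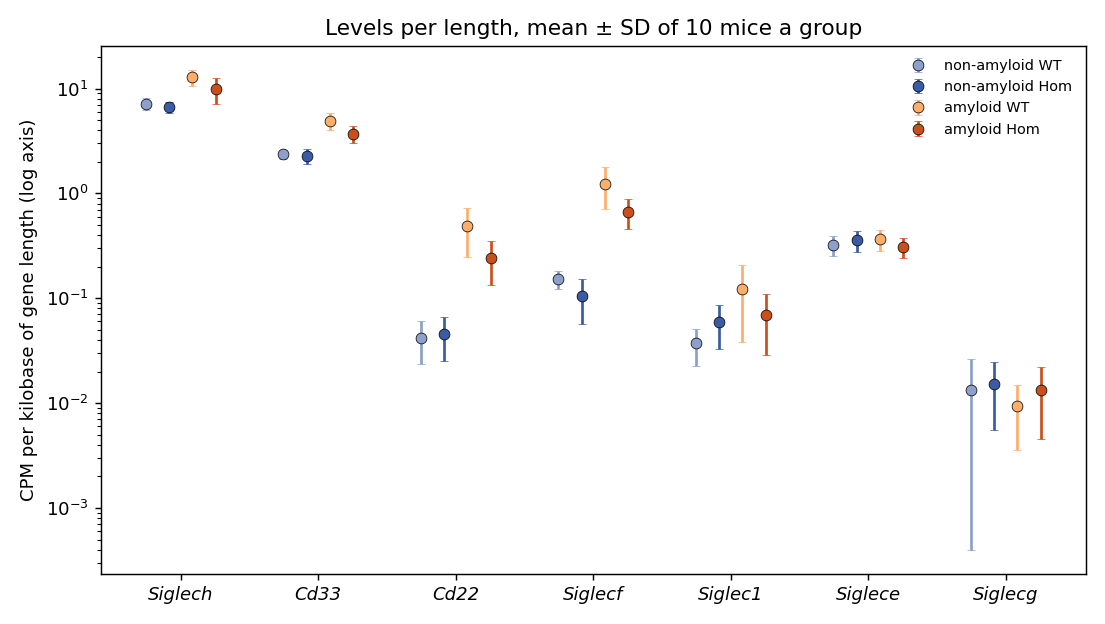
Mean level ± SD of the 7 genes in CPM per kilobase (log axis) for the 4 groups of 10 mice. *Siglech* and *Cd33* lead in each group, and *Siglecf* and *Cd22* come next in amyloid WT mice, with 1.24 and 0.485 CPM per kb.

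The cohorts were compared within each genotype, in 1 edgeR fit of the 40 libraries, to ask how the lectins differ between mice with and without amyloid. In WT mice 5 of the 7 genes were called higher in the amyloid cohort (adjusted p under 0.05 and absolute log2 fold change over 0.25), where 6.62% of all genes tested were called higher and 1.33% lower, and none was called lower. In Hom mice 4 of the 7 were called higher, beside 5.71% of all genes (0.856% lower), and again none lower. The median log2 fold change of the 7 was 1.06 in WT and 0.55 in Hom mice, while that of all genes was 0.00 and 0.03. Adjusted p-values come from the quasi-likelihood F-test of edgeR, adjusted by Benjamini and Hochberg's method over the 21253 genes, and the SE is the log2 fold change divided by the root of the test's F.

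*Cd22*, an ITIM receptor that dampens B cell receptor signals, had the largest fold change of the 7 in WT mice and the second to *Siglecf* in Hom mice. It ranged from 0.0464 to 0.324 CPM in non-amyloid WT mice (median 0.209, 3 to 24 counts) and from 1.18 to 4.16 in amyloid WT mice (median 2.17, 85 to 376 counts). In Hom mice it ran from 0.0641 to 0.419 CPM without amyloid (median 0.236) and from 0.544 to 2.38 with amyloid (median 1.12). No amyloid mouse overlapped the non-amyloid mice of its genotype, a pattern that 1.95% of all genes showed upward in WT mice and 0.875% in Hom mice. The log2 fold change was 3.52 in WT mice (SE 0.32, adjusted p = 1.47e-11, edgeR), an 11.5-fold difference, and 2.38 in Hom mice (SE 0.31, adjusted p = 3.65e-07, edgeR), or 5.20-fold.

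*Siglecf*, another ITIM receptor, showed the same separation. Its CPM ran from 0.325 to 0.582 (median 0.406) in non-amyloid WT mice and from 1.92 to 7.10 (median 2.90) in amyloid WT mice. In non-amyloid Hom mice it ran from 0.0160, a single count in replicate 23, to 0.463 (median 0.282), and in amyloid Hom mice from 1.08 to 2.70 (median 1.79). Again no amyloid mouse overlapped the non-amyloid mice of its genotype. The log2 fold change was 3.02 in WT (SE 0.25, adjusted p = 2.48e-12, edgeR) and 2.64 in Hom mice (SE 0.26, adjusted p = 4.63e-10, edgeR).

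*Cd33* and *Siglech*, the abundant members, differed by smaller factors. *Cd33* rose from between 5.46 and 7.27 CPM (median 5.97) to between 9.10 and 16.5 (median 12.98) in WT mice, and from between 3.90 and 7.54 (median 5.98) to between 7.65 and 13.1 (median 9.14) in Hom mice. The ranges did not overlap in either genotype, and the log2 fold changes were 1.06 (SE 0.10, adjusted p = 1.47e-10, edgeR) and 0.70 (SE 0.10, adjusted p = 6.76e-06, edgeR). *Siglech* ranged from 19.3 to 29.9 CPM (median 23.2) and from 33.9 to 55.1 (median 43.1) in WT mice without and with amyloid, with no overlap. In Hom mice the values were 19.6 to 27.5 (median 21.7) and 24.1 to 47.8 (median 30.2), and 7 of 10 amyloid mice lay above every non-amyloid mouse. The log2 fold change of *Siglech* was 0.85 in WT (SE 0.11, adjusted p = 2.13e-07, edgeR) and 0.55 in Hom mice (SE 0.11, adjusted p = 8.60e-04, edgeR).

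*Siglec1*, the macrophage adhesion receptor, was called higher in WT mice but did not pass in Hom mice. It ranged from 0.110 to 0.413 CPM (median 0.260) in non-amyloid WT mice and from 0.415 to 2.30 (median 0.629) in amyloid WT mice, 2 ranges that touch but do not overlap. The log2 fold change was 1.73 (SE 0.35, adjusted p = 4.05e-04, edgeR). In Hom mice it ran from 0.201 to 0.764 CPM (median 0.381) without amyloid and from 0.0469 to 0.955 (median 0.522) with it, with wide overlap, and the log2 fold change was 0.22 (SE 0.34, adjusted p = 0.726, edgeR). The lowest value is that of replicate 19, 2 counts, and without that library the Hom log2 fold change was 0.35 (adjusted p = 0.563, edgeR). The difference between the genotypes was tested as an interaction, given further on.

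*Siglece*, an ITIM receptor of myeloid cells, did not pass in either genotype and its 4 groups overlapped almost wholly, with medians of 0.621 CPM in non-amyloid WT, 0.687 in non-amyloid Hom, 0.666 in amyloid WT and 0.570 in amyloid Hom mice (all 40 mice 0.362 to 0.939). The log2 fold changes were 0.18 (SE 0.15, adjusted p = 0.566, edgeR) in WT and −0.20 (SE 0.15, adjusted p = 0.432) in Hom mice. *Siglecg*, whose product restrains B-1 cells, had 0 to 20 counts per library, none in 6 of the 40, and reached 10 counts in 5 libraries, so that it barely entered the tests. Its log2 fold changes of −0.52 (SE 0.52) and −0.17 (SE 0.50) are each no larger than their SE, and no direction was detectable at this depth.

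**Figure D2:**
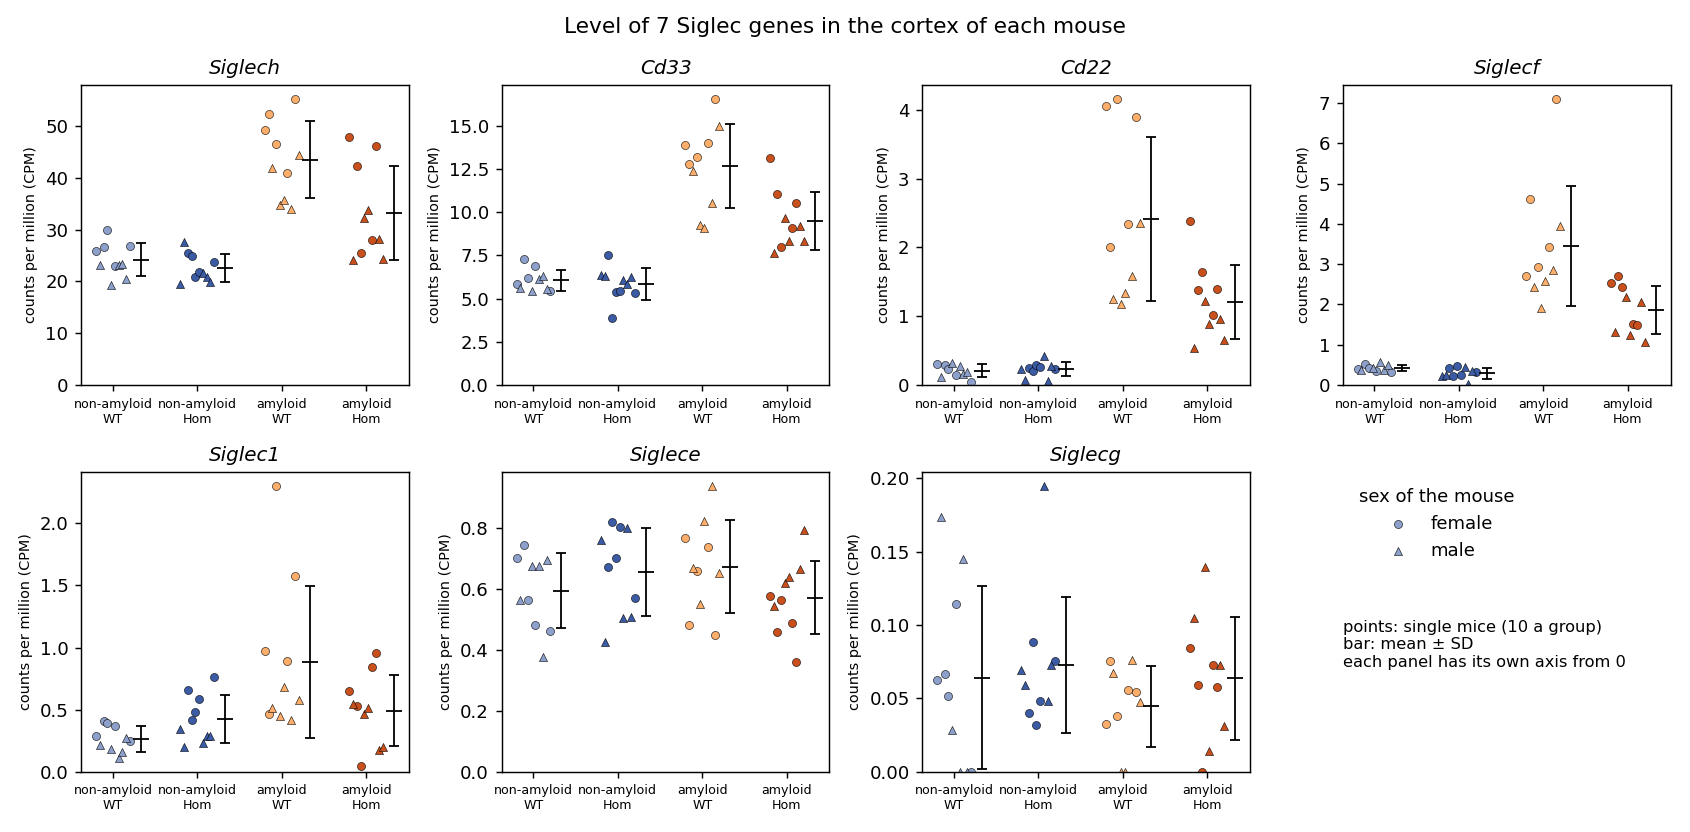
Level in CPM (vertical axes, each from 0) of the 7 genes in each of the 40 mice by group, with circles for females, triangles for males and bars for mean ± SD. *Cd22*, *Siglecf* and *Cd33* of amyloid mice lie above all non-amyloid mice of their genotype, while *Siglece* and *Siglecg* overlap in all 4 groups.

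Hom mice were then compared with WT mice within each cohort, to ask what *Trem2* H157Y changes. None of the 7 genes was called in the amyloid cohort without covariates, where 16 of 21253 genes (0.0753%) were. The paper, which left out 1 amyloid Hom female, reports many more genes for this comparison, nearly all of them lower. With sex in the model and without replicate 19, 200 genes were called, 194 of them lower, and *Siglecf* and *Cd22* were among these. In the fit without covariates, 5 of the 7 were lower with an unadjusted p under 0.05, where 5.77% of all genes were. They were *Cd33*, *Cd22*, *Siglecf*, *Siglech* and *Siglec1*. Without replicate 19, and likewise without a filter on low counts, *Siglec1* no longer had such a p (0.0595 and 0.0517), which leaves 4 of the 7. The median log2 fold change of the 7 was −0.42 and that of all genes 0.00. These values share the amyloid WT mice with the cohort comparison in WT mice and are no separate evidence beside it.

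*Siglecf* had the lowest p of the 7. Its mean was 1.86 ± 0.594 CPM in amyloid Hom and 3.46 ± 1.497 in amyloid WT mice, and the WT range was undercut by 5 of 10 Hom mice (log2 fold change −0.90, SE 0.22, adjusted p = 0.0787, edgeR). *Cd22* was 1.21 ± 0.535 and 2.42 ± 1.20 CPM, again with 5 of 10 Hom mice under the WT range (log2 fold change −1.003, SE 0.28, adjusted p = 0.112, edgeR). *Cd33* was 9.50 ± 1.68 and 12.7 ± 2.43 CPM, again with 5 of 10 under the WT range (log2 fold change −0.42, SE 0.11, adjusted p = 0.105, edgeR).

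The ranges of these 3 genes overlap in their upper Hom and lower WT mice, and their calls depend on the model. Adding sex to the model gave adjusted p-values of 0.0211 for *Siglecf*, 0.0120 for *Cd22* and 0.0362 for *Cd33*. With DESeq2 they were 0.00774, 0.0257 and 0.0330, and in one edgeR fit of all 40 libraries 0.0197, 0.0352 and 0.0148. Without replicate 19 and with sex in the model they were 0.0284, 0.0180 and 0.0610, so that *Cd33* no longer passed. Without WT replicate 13 and no covariate *Siglecf* (0.0322) and *Cd33* (0.0485) passed. This was the only 1 of 20 such leave-one-out fits where either did, and *Cd22* passed in 0. None of the 3 passed in edgeR with median-of-ratios size factors (0.0799, 0.117 and 0.112) or without a filter on low counts (0.0711, 0.0982 and 0.0852). Without replicate 19 and no covariate none passed either (0.0918, 0.139 and 0.182). The log2 fold changes stayed negative for all 3 in each of these fits.

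*Siglech* was 33.2 ± 9.07 CPM in amyloid Hom and 43.5 ± 7.41 in amyloid WT mice, with 7 of 10 Hom mice under the WT range (log2 fold change −0.39, SE 0.13, adjusted p = 0.237, edgeR). It passed in the fit of all 40 libraries alone (adjusted p = 0.0450). *Siglec1* had a log2 fold change of −0.83 (SE 0.39, adjusted p = 0.505), or −0.69 (SE 0.35, adjusted p = 0.659) without replicate 19, and *Siglece* of −0.24 (SE 0.16, adjusted p = 0.633), both by edgeR, and *Siglecg* of 0.54 (SE 0.48) on a median of 4 counts in each group.

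In the non-amyloid cohort none of the 7 genes was called, where 7 of 21253 (0.0329%) were. Their log2 fold changes ran from −0.52 (*Siglecf*, SE 0.27) to 0.68 (*Siglec1*, SE 0.26) with a median of 0.14. *Siglec1* alone had an unadjusted p under 0.05 (0.0164, adjusted p = 0.965, edgeR; 4.61% of all genes did), with 0.427 ± 0.191 CPM in Hom and 0.265 ± 0.102 in WT mice and 5 of 10 Hom mice above every WT mouse. *Cd33* (log2 fold change −0.05, SE 0.09) and *Siglech* (−0.09, SE 0.08) had the smallest errors.

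The interaction of genotype and cohort, which tests whether the Hom effect differs between cohorts, called 0 of the 7 and 0 of all genes (0.0%) with edgeR, 2189 genes (10.3%) having an unadjusted p under 0.05 and DESeq2 calling 38. *Siglec1* had the largest difference, a log2 value of −1.503 (SE 0.49, unadjusted p = 0.00366, adjusted p = 0.238), being lower in Hom mice with amyloid and higher in Hom mice without it. Without replicate 19 it was −1.37 (unadjusted p = 0.00407, adjusted p = 0.360). *Cd22* (−1.14, SE 0.43, unadjusted p = 0.0105, adjusted p = 0.359, edgeR) and *Cd33* (−0.36, SE 0.15, unadjusted p = 0.0173, adjusted p = 0.409, edgeR) also had an unadjusted p under 0.05, as 5.54% of all genes did downward. An effect of genotype that differs between the cohorts was therefore not shown for any member.

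**Figure D3:**
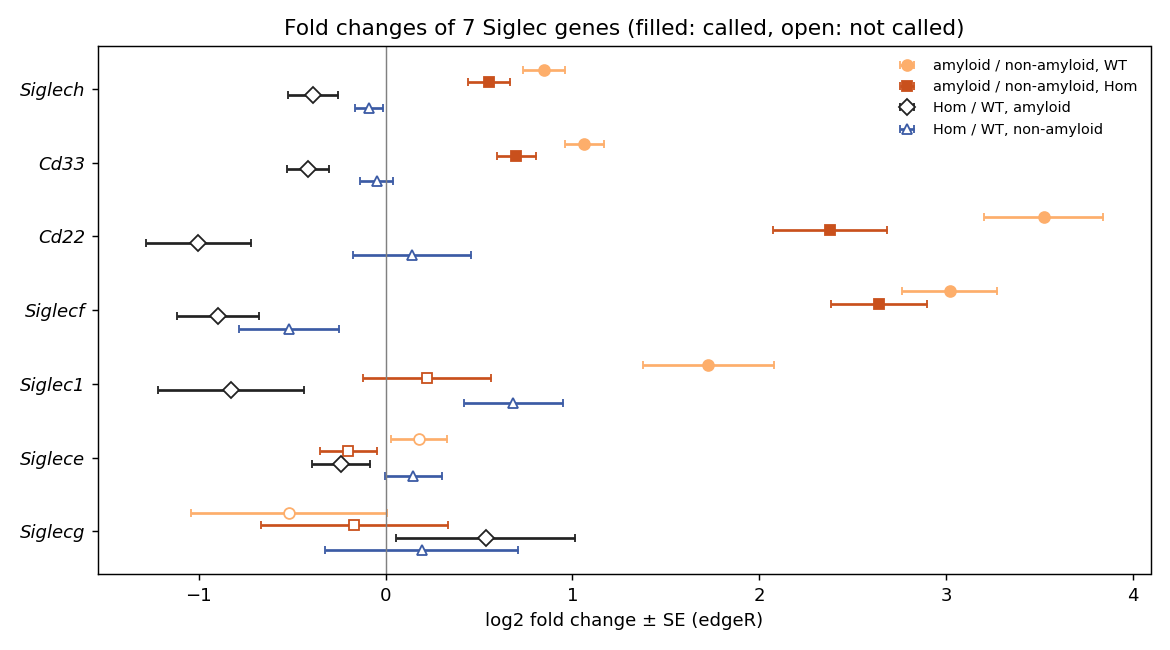
Log2 fold changes (horizontal axis) ± SE of the 7 genes in 4 edgeR comparisons, filled where called. The cohort comparisons of *Cd22* reach 3.52 in WT and 2.38 in Hom mice, and the Hom against WT symbols are open for all 7 genes in both cohorts.

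Because *Siglech* is a known microglial gene and microglial genes differed between the cohorts, each member was also read against the summed CPM of 11 microglial genes (*P2ry12*, *Tmem119*, *Cx3cr1* and others) in the same mouse, as a log2 ratio with no test. That sum ran from 353 to 466.3 CPM in the 20 non-amyloid mice, from 658 to 1391 in amyloid WT and from 543 to 929 in amyloid Hom mice. All 11 genes were called higher with amyloid in WT mice (median log2 fold change 1.11) and 8 in Hom mice (median 0.56). Whether they account for the members' differences was not tested.

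*Cd22* and *Siglecf* differed between the cohorts by more than that sum did. The mean log2 ratio of *Cd22* was 2.33 higher in amyloid than in non-amyloid WT mice (pooled SD 0.71) and 1.72 higher in Hom mice (0.68). For *Siglecf* it was 1.72 (0.34) and 2.18 higher (1.01). The Hom value of *Siglecf* leans on non-amyloid replicate 23, with 1 count and a log2 ratio of −14.6 against a group mean of −10.8. It does not show a larger difference in Hom than in WT mice. All 10 amyloid mice lay above all non-amyloid mice of their genotype for both genes.

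The ratio of *Cd33* differed by −0.18 (pooled SD 0.15) in WT mice, where 5 of 10 amyloid mice lay below every non-amyloid mouse, and by −0.05 (0.22) in Hom mice. That of *Siglech* differed by −0.38 (0.12) and −0.23 (0.15), and 9 of 10 amyloid WT mice lay below every non-amyloid WT mouse. That of *Siglece* differed by −1.05 (pooled SD 0.47) in WT and −0.95 (0.45) in Hom mice, and that of *Siglec1* by 0.39 (0.62) and −0.79 (1.01). The Hom value of *Siglec1* leans on replicate 19, with 2 counts and a log2 ratio of −13.8 against a mean of −10.9 in amyloid Hom mice.

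Between amyloid Hom and amyloid WT mice all 11 microglial genes had a negative log2 fold change (median −0.48), 0 were called and 9 had an unadjusted p under 0.05. The ratios differed by 0.08 for *Cd33* (pooled SD 0.14), 0.08 for *Siglech* (0.15), −0.38 for *Siglecf* (0.35) and −0.47 for *Cd22* (0.44), so that *Cd33* and *Siglech* differed by less than 1 SD and *Siglecf* and *Cd22* by slightly more.

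**Figure D4:**
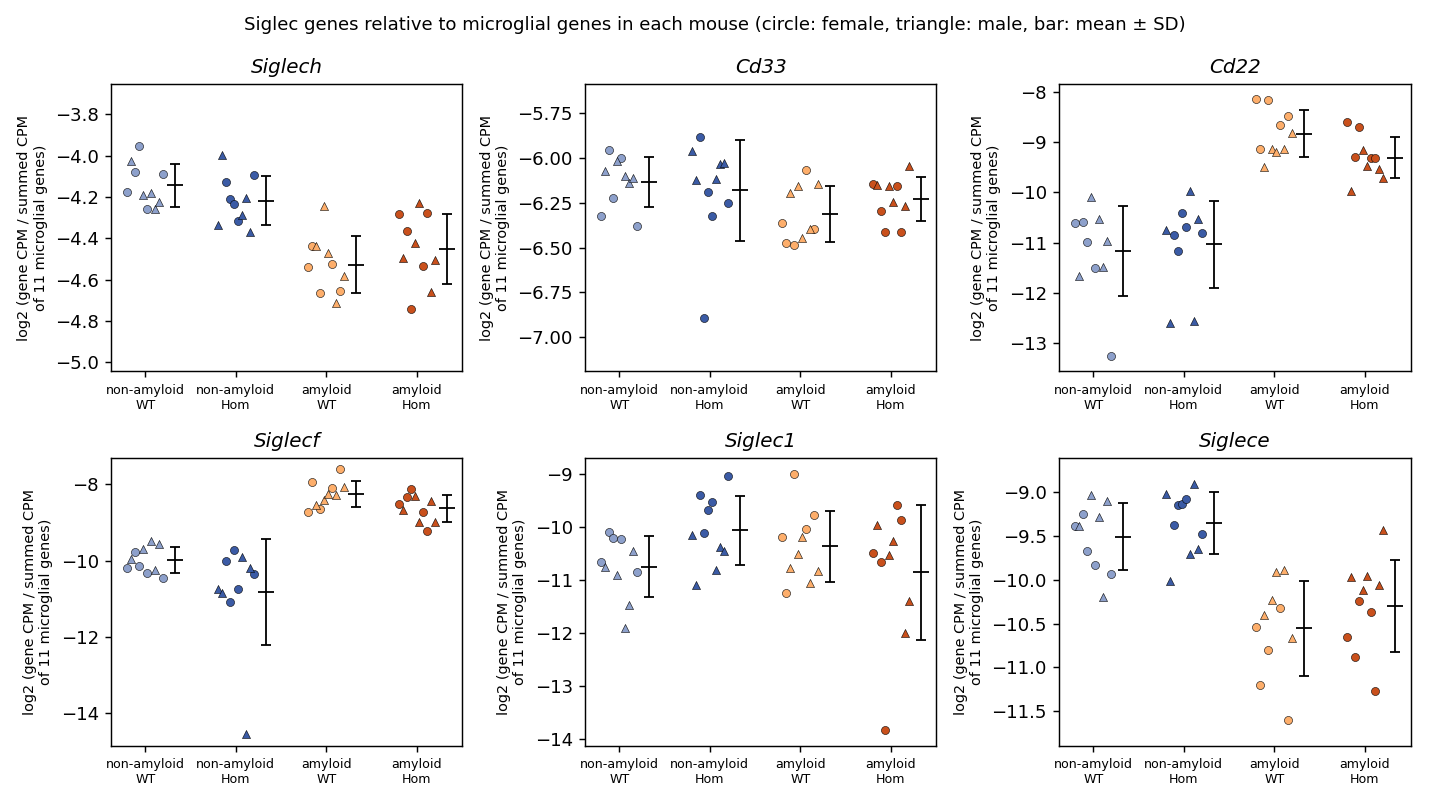
Log2 ratio of each gene's CPM to the summed CPM of 11 microglial genes (vertical axes, not from 0) in each mouse of the 4 groups, with mean ± SD. *Cd22* and *Siglecf* are higher in all amyloid mice, by a mean of 2.33 and 1.72 in WT mice, and the mean of *Siglech* differs by −0.38. *Siglecg*, with libraries at 0, is left out.

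Markers of the other cells that carry these lectins were read in the same libraries. Of 8 B cell genes 4 had enough counts to be tested and none was called in either cohort comparison (median log2 fold change 0.21 in WT and 0.25 in Hom mice). Their summed CPM, mostly *Ighm*, ran from 33.6 to 72.8 in non-amyloid WT and from 37.6 to 73.2 in amyloid WT mice. Of the 4 tested, 3 had a positive log2 fold change with amyloid in WT mice and all 4 in Hom mice. Among the genes not tested, *Ms4a1* and *Pax5* stayed at or below 0.217 CPM in every mouse. The part of B cells in the result of *Cd22* was not tested.

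Of 6 eosinophil genes only *Epx* could be tested. Their summed level ran from 0.0773 to 0.826 CPM in non-amyloid WT and from 0.115 to 0.379 in amyloid WT mice, where *Ear1* was at 0 in every library, and *Siglecf* alone reached 1.92 to 7.10. *Epx* was called in Hom mice (log2 fold change 1.15, SE 0.35, adjusted p = 0.0346, edgeR) and not in WT mice (0.82, SE 0.34, adjusted p = 0.143). The 5 plasmacytoid dendritic cell genes (4 tested) summed to 2.20 to 4.19 CPM in non-amyloid WT and 2.38 to 5.63 in amyloid WT mice, none called, with *Klk1* at 0 in every non-amyloid WT mouse.

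Border macrophages, the usual carriers of *Siglec1* in brain, had 1 of 8 markers called higher with amyloid in WT mice, *Stab1* (log2 fold change 0.42, SE 0.12, adjusted p = 0.0183, edgeR), and 0 in Hom mice, with medians of 0.30 and −0.05. Their summed level ran from 19.4 to 30.01 CPM in non-amyloid WT, 25.2 to 42.9 in amyloid WT and 22.3 to 34.1 in amyloid Hom mice. Their part in the result of *Siglec1* was not tested. Of 7 neutrophil genes 3 could be tested, and *Ngp* was lower in amyloid WT mice (log2 fold change −3.01, adjusted p = 0.0288, edgeR), with the list's sum reaching 21.3 CPM in 1 non-amyloid WT mouse.

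The 10 interferon-induced genes, known, like *Siglec1*, to be induced by interferon, were all called higher with amyloid in WT mice (median log2 fold change 1.82), with the lowest p for *Usp18* (2.05, SE 0.26, adjusted p = 8.86e-08), *Rsad2*, *Oas1a* and *Oasl2*. In Hom mice 3 of 10 were called, *Rsad2*, *Oasl2* and *Oas1a* (median 0.68), and in amyloid Hom against WT mice none was, though all 10 were negative (median −1.18). *Siglec1* passed in WT and not in Hom mice as well, and the 2 patterns were not tested against each other.

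Of the 12 genes of plaque-associated microglia all were called higher in WT mice with amyloid (median log2 fold change 2.72) and 10 in Hom mice (median 1.94). *Cst7* (8.90), *Itgax* (6.43), *Clec7a* (5.94) and *Ccl6* (4.02) had the lowest p in WT mice. In amyloid Hom mice *Gpnmb* was the 1 gene of the list called lower (−1.61, SE 0.29, adjusted p = 0.0330, edgeR), while all 12 were negative with an unadjusted p under 0.05 (median −0.86).

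Most of the signalling genes below Siglecs were called higher with amyloid as well. Of 15 adaptors, kinases and phosphatases 10 were called higher in WT mice (median log2 fold change 1.04) and 8 in Hom mice (median 0.48). *Tyrobp*, the adaptor of Siglec-H, rose by 2.77 (SE 0.17, adjusted p = 3.11e-16, edgeR) in WT and 1.99 (SE 0.16, adjusted p = 9.40e-12) in Hom mice. *Ptpn6*, the ITIM-bound phosphatase SHP-1, rose by 1.91 (SE 0.14, adjusted p = 2.37e-14) and 1.07 (SE 0.13, adjusted p = 2.05e-07). The lipid phosphatase gene *Inpp5d* (1.04) and the exchange factor gene *Vav1* (1.47) followed in WT mice and *Fgr*, a Src-family kinase gene, in Hom mice (2.61). *Ptpn6* was also the 1 gene of the list called between genotypes, lower in amyloid Hom than in amyloid WT mice (log2 fold change −0.86, SE 0.16, adjusted p = 0.0402, edgeR).

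The genes that make, place and remove the ligand were read in the same way. Of 7 genes of sialic acid metabolism none was called in any cohort or genotype comparison. *Cmah*, which makes the N-glycolyl form, had the largest log2 fold change with amyloid in WT mice (0.81, SE 0.29, adjusted p = 0.0660, edgeR). *Gne* was lower there and passed the adjusted p alone, missing the fold threshold (−0.12, SE 0.04, adjusted p = 0.049, edgeR). Of 20 sialyltransferase genes 19 were tested. With amyloid 2 were called higher in each genotype, beside 6.62% of all genes in WT and 5.71% in Hom mice. *St8sia6*, an α2,8-sialyltransferase gene, was one of them in both, with 1.36 (SE 0.15, adjusted p = 2.41e-09, edgeR) in WT and 1.07 (SE 0.15, adjusted p = 1.95e-06) in Hom mice. The other was *St6gal1* in WT mice (0.32, SE 0.06, adjusted p = 1.19e-04), whose α2,6-linked product CD22 binds, and *St3gal6* in Hom mice (0.38, SE 0.10, adjusted p = 0.00923). The median of the 19 was 0.06 and 0.04. None of the 4 sialidase genes was called.

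Of the other mouse Siglecs, *Mag* of myelin was tested and not called (log2 fold change 0.06, SE 0.13, in WT mice), and *Siglec15* stayed at or below 0.0580 CPM. Among astrocyte genes *Gfap* (3.16 and 2.35) and *Aqp4* (0.64 and 0.52) of 6 were called higher with amyloid in WT and Hom mice. Of neuronal genes 0 of 6 were called, oligodendrocytes 0 of 5 in WT and *Mobp* in Hom mice (0.29, adjusted p = 0.0247, edgeR), and the 5 red blood cell genes none.

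Females were compared with males within each cohort, since each group held both sexes. In the amyloid cohort 1 of the 7 genes, *Cd22*, was called higher in females, where 0.202% of all genes were, and none lower (0.0376% of all genes). The amyloid WT females had 4.06, 2.003, 4.16, 2.34 and 3.90 CPM and the WT males 1.25, 1.18, 1.35, 1.58 and 2.35. The Hom females had 2.38, 1.38, 1.64, 1.02 and 1.403 CPM and the Hom males 0.544, 1.22, 0.894, 0.957 and 0.655.

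The sexes overlapped in both genotypes. The log2 fold change of females to males was 0.99 (SE 0.19, adjusted p = 0.0315, edgeR). Leaving out single mice ended this call in 12 of 20 fits (Hom replicates 3, 10, 30, 34 and 40 and WT replicates 5, 9, 12, 13, 22, 27 and 32), with adjusted p-values up to 0.0946, and so did testing without a filter on low counts (0.0659). *Siglech* was higher in amyloid females by 0.39 (SE 0.11, adjusted p = 0.140) and passed without replicate 19 (0.43, adjusted p = 0.0496, edgeR). Of the microglial genes 2 of 11, *Fcrls* (0.58) and *Gpr34* (0.72), and of the signalling genes *Lyn* (0.42) were also called higher in amyloid females. So was 1 of 6 astrocyte genes, *Gfap* (0.83, SE 0.17, adjusted p = 0.0377, edgeR). All 11 microglial genes had a positive log2 fold change there (median 0.32), and their part in the result of *Cd22* was not tested.

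In the non-amyloid cohort *Siglec1* was the 1 member called higher in females, where 0.0518% of all genes were, and none was called lower (0.0706% of all genes). The WT females had 0.288, 0.413, 0.391, 0.369 and 0.247 CPM and the WT males 0.217, 0.183, 0.110, 0.156 and 0.273. The Hom females had 0.658, 0.416, 0.479, 0.588 and 0.764 CPM and the Hom males 0.346, 0.201, 0.234, 0.289 and 0.291. Within Hom mice every female lay above every male, and within WT mice they overlapped by 1 mouse on each side.

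The log2 fold change of *Siglec1* was 0.98 (SE 0.18, adjusted p = 0.0201, edgeR). The call held in all 20 edgeR fits without 1 mouse, but narrowly, with adjusted p-values up to 0.0496. Counts of *Siglec1* were low, 7 to 38 in non-amyloid WT and 17 to 71 in non-amyloid Hom mice. In the amyloid cohort *Siglec1* was higher in females by 0.97 (SE 0.34, adjusted p = 0.349), and by 1.103 without replicate 19 (SE 0.26, adjusted p = 0.0678, edgeR). None of the 10 interferon-induced genes was called between the sexes in either cohort. In amyloid females all 10 had a positive log2 fold change (median 0.72), 7 with an unadjusted p under 0.05 (edgeR), as 1684 of 21253 genes had. In non-amyloid females 8 were positive (median 0.17), 0 of the 10 with such a p. Their part in the result of *Siglec1* was not tested. Whether the Hom effect differed between the sexes was tested in the amyloid cohort, which called 0 of the 7 genes and 0 of all genes (0.0%) with edgeR and 0 with DESeq2, 1124 genes (5.29%) having an unadjusted p under 0.05.

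**Figure D5:**
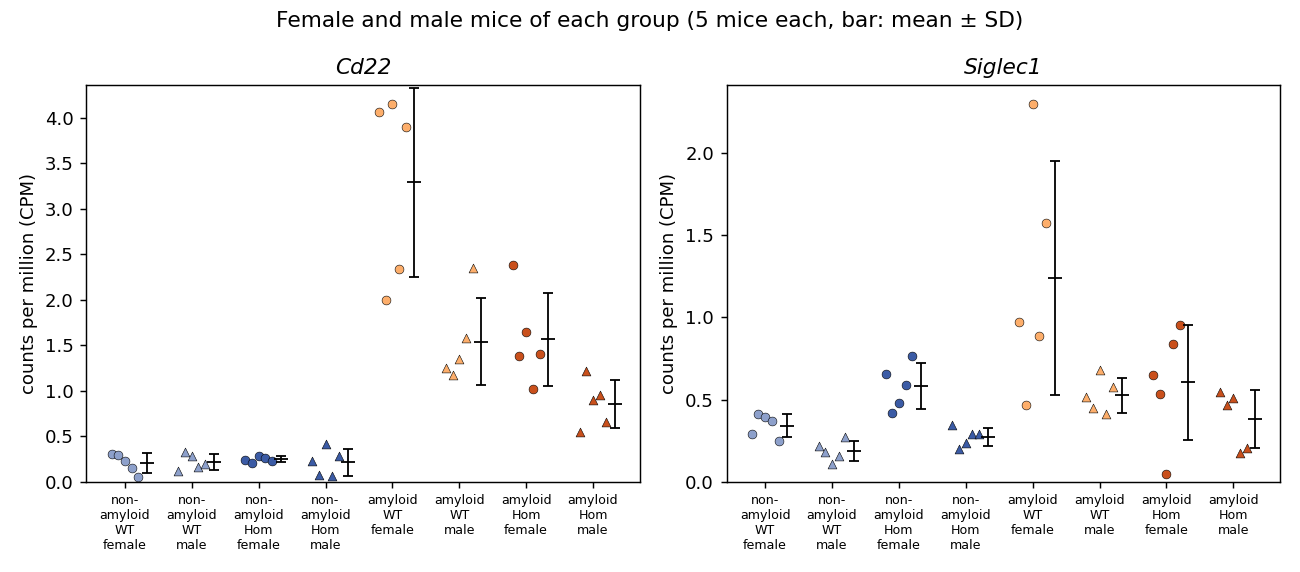
CPM of *Cd22* and *Siglec1* (vertical axes from 0) in the 5 females (circles) and 5 males (triangles) of each group, with mean ± SD. Amyloid females run up to 4.16 CPM for *Cd22*, and all 5 non-amyloid Hom females lie above the Hom males for *Siglec1*.

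The genes whose levels moved most like a member from mouse to mouse were sought by Pearson's r of log2 CPM over the 40 libraries after subtraction of the group means, among 15198 genes with a mean of at least 1 CPM. The values are descriptions over mice that share sex and library differences. For *Siglech* they included *Cd53* (0.87), *P2ry13* (0.84), *Nckap1l* (0.83) and *Gpr34* (0.82). For *Cd33* they were *Dock2* (0.84), *Nckap1l* (0.76), *Lpcat2* (0.76), *Cd86* (0.75) and *C3ar1* (0.75).

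For *Cd22* the closest genes were *Inpp5d* (0.76), *Vav1* (0.75), *Slc11a1* (0.75), *Ctsa* (0.75) and *Cd68* (0.75), of which the first 2 are on the list of Siglec signalling genes. For *Siglecf* they were *Itgax* (0.81), *Clec7a* (0.79), *Ahrr* (0.71), *Gpr84* (0.66) and *Runx1* (0.65), and the first 2 are on the list of plaque-associated genes. *Clec7a* has 2 overlapping rows in the table, and the value is that of the closer one. Among the members themselves the highest r were those of *Cd22* with *Siglecf* (0.64) and *Siglech* with *Cd33* (0.60), and *Siglece* was negative with *Siglech* (−0.43) and *Cd33* (−0.32).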

How the data were processed

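Raw counts per gene, with no normalization by the authors, were deposited for 40 libraries of mouse cortex (polyadenylated RNA, paired reads, mm10). The paper's methods give TopHat and Bowtie for alignment and the submitters' processing notes give STAR 2.5.2b and featureCounts 1.5.1, and the strand setting was not given in the sources used here. Groups came from the sample labels, and 1 library counted as 1 mouse. A gene was tested if 4 or more of the 40 libraries held 10 or more of its counts. Counts were scaled by TMM and tested with edgeR 4.0.16 (R 4.3.3, quasi-likelihood test, Benjamini-Hochberg adjustment), without covariates, since the study's methods name this test and no covariates for it. The Hom against WT and sex comparisons used the 20 libraries of a cohort, and the cohort comparisons and the interaction used all 40. CPM values are TMM-scaled, with a prior count of 2 on log scales. The fit was tried on simulated counts for amyloid Hom against WT. It called 89 of 100 genes changed by a log2 value of 1 and 69 of 100 genes changed by less. Changes were placed only in genes with higher counts, so the simulation does not cover low members such as *Siglecg*.

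The alternatives were DESeq2 1.42.0, median-of-ratios size factors, no filter, no fold threshold, sex as a covariate, other sets of libraries and each mouse left out. The paper left out 1 unnamed amyloid Hom female because of a low percentage of gene counts and its strand check. Replicate 19 is an amyloid Hom female with the fewest counts, and it was the only library that stood apart by strand. Whether it is the library that the paper left out cannot be settled from the labels, and all 10 were kept here. Beside the 7 members and *Trem2*, the genes named were those called in a gene list (all up to 6, otherwise the 4 with the lowest p, or the 2 lowest where none was called, of which only some are printed) and the 5 closest in level to each member with a mean of at least 1 CPM. *Siglec15*, *Ms4a1*, *Pax5*, *Ear1*, *Klk1* and *Gm29439* were named after their values were seen. Values of some single genes of the lists and of those closest in level are not reported here. Members, lists and tests were chosen with earlier results of these data known. Transcript windows of 100 bases came from GENCODE vM21 and promoters from RefSeq (GRCm38.p6). Counting error limits genes near 10 counts, and precision is otherwise set by the spread between mice.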

Additional observations from a re-analysis of the deposited data

Results flagged for a closer look

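In 3 of 32 sets of 10 mice examined (7 genes and the opposite-strand share in 4 groups) 1 mouse stood far from the other 9 by Dixon's test, which chance alone does in about 1 of 20. *Siglecf* in amyloid WT replicate 32, a female, was 7.10 CPM, the next mouse being at 4.61. *Siglecg* in non-amyloid Hom replicate 21 was 0.195 CPM, or 20 counts, against 0.0883 in the next mouse. The share of counts on opposite-strand genes in amyloid Hom replicate 19 was 0.616%, against 0.0175% in the next library of that group. No difference between cohorts or sexes in the effect of genotype passed its test for any of the 7 genes.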

How the results depend on the processing

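The 5 cohort calls in WT mice and the 4 in Hom mice held in each of the 5 and 6 other fits and in all 40 fits that left out 1 mouse, with no change of sign among those genes. The numbers of genes called moved more. Amyloid Hom against WT called 16 genes, but 303 with DESeq2, 8 without a filter, 612 in one fit of 40 libraries, 251 with sex as a covariate, 200 with sex and without replicate 19, and 6 (without Hom replicate 39, among others) to 204 (without WT replicate 13) with 1 mouse left out, the count moving by over 1.5 times for 16 of the 20 mice. Non-amyloid Hom against WT called 7 genes, 11 with DESeq2 and 4 (without Hom replicate 11 or WT replicate 1, 17, 31 or 38) to 8 with 1 mouse left out. The interaction of genotype and cohort called 0, but 38 with DESeq2, 12 with sex, 6 with sex and without replicate 19, and 0 to 22 with 1 mouse left out (22 without amyloid WT replicate 13, 7 without amyloid Hom replicate 3). Amyloid females against males called 51, 257 with DESeq2, 26 without a filter and 19 (without Hom replicate 10 or WT replicate 13) to 116 (without WT replicate 26) with 1 mouse left out, 89 without replicate 19. Non-amyloid females against males called 26, 48 with DESeq2 and 18 to 24 with 1 mouse left out. The interaction of genotype and sex called 0, and 0 to 1 with 1 mouse left out (1 without Hom replicate 40). The causes were not tested. The cohort comparisons called 1424 to 1805 genes in WT and 967 (without replicate 19) to 1639 in Hom mice with 1 mouse left out. The ratios to microglial genes moved by less than 1 SD with the mean of log2 CPM as reference or without replicate 19. No paired analysis was possible because replicate numbers run from 1 to 40 and no 2 groups share one. DESeq2 gave no adjusted p for *Siglecg* in 4 comparisons.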
